A study of Mus musculus with 8 samples.

Results

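The Tcra/Tcrd locus of the mouse was described from ATAC-seq peak lists of DN3 thymocytes, an assay that marks open chromatin by the insertion of adapters with a transposase. Its members were the peaks that overlapped chr14:52400000-54300000 (GRCm38, mm10), a window of 1.9 Mb from the olfactory receptor genes around Trav1 to the genes beyond Dad1. These numbered 342 of 169255 peaks in wild type 1, 316 of 156372 in wild type 2, 269 of 121022 in mutant 1 and 270 of 119023 in mutant 2. Merging the lists gave 332 regions in the window, of 180321 in all. The libraries came from C57BL/6 mice, 2 with an intact Notch-Myc enhancer (N-Me, a distant control element of Myc) and 2 homozygous for mutations of its GATA sites 1 and 2. N-Me lies on another chromosome, and the labels name no change within the Tcra/Tcrd locus. Age, sex, the sorting gate and whether replicates were separate animals are not stated, so each p measures only the spread between these libraries. The 4 leukaemia samples of the series were not analysed here.

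The locus encodes the alpha and delta chains of the T-cell receptor, with the delta D, J and C segments nested between the V array and the alpha J array. V, D and J segments are joined by the RAG recombinase at recombination signals made of a heptamer and a nonamer with a spacer between them. Delta rearrangement takes place in DN2 and DN3 cells under the delta enhancer, which lies between Trdj2 and Trdc. Alpha rearrangement follows in double-positive cells, under the alpha enhancer (Ea) beyond Trac and the T early alpha (TEA) promoter before Traj61. Dad1, next to Ea, encodes a subunit of the oligosaccharyltransferase of the endoplasmic reticulum and is expressed in most cells.

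The sequences shown are 3 start windows of the locus that lay under peaks in all 4 libraries, each 250 bases before to 50 after an annotated start, from RefSeq (GRCm38.p6). They were chosen to show a housekeeping gene, the edge of a V segment, and the interval between Trdj1 and Trdj2. Capitals mark GATA motifs (AGATAA or its variant AGATAG and likewise TGATAA or its variant TGATAG, on either strand) and, in the Gm30392 window, also the recombination signal of Trdv2-2. The windows are printed on the strand of the gene, which is the minus strand in each.
Dad1, chr14:54253880-54254179: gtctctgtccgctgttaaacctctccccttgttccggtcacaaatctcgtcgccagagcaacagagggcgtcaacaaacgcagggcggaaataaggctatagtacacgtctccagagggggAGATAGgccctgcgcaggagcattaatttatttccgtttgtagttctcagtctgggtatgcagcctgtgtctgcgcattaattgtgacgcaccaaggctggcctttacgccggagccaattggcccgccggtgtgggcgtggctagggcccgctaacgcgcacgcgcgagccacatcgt
Gm30392, chr14:53961603-53961902: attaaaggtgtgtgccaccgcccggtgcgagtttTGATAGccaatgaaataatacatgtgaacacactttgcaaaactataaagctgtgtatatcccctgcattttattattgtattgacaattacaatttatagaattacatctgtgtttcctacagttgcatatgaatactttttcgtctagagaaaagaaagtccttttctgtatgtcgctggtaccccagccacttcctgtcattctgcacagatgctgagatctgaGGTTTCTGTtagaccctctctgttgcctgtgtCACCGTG
Gm30275, chr14:54125684-54125983: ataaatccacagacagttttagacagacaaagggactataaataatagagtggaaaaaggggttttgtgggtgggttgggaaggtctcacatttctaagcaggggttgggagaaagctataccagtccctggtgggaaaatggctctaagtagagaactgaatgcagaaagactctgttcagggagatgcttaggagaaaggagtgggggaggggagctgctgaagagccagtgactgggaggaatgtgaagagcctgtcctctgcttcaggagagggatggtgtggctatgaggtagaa
The Dad1 window was covered over all 300 bases in each of the 4 libraries, held 1 GATA motif and had a GC content of 57.3% with 24 CpG, against a median of 52.7% and 7 over 32851 tabulated windows. The first start window of Abhd4, which encodes a lipase, is the opposite strand of the same DNA shifted by 1 base. The Gm30392 window belongs to a long non-coding RNA and begins 1 base after the end of the delta segment Trdv2-2. Read in the direction of Trdv2-2, it opens with the heptamer CACGGTG (A4G relative to CACAGTG), a spacer of 23 bases and the nonamer ACAGAAACC (A4G relative to ACAAAAACC), with positions counted from 1 at the 5′ end of each element. This signal was looked for after the sequence had been seen. It is printed here as its reverse complement, at positions 262 to 270 and 294 to 300. Peaks covered 155 and 139 bases of this window in the wild-type libraries and all 300 in both mutant libraries. The Gm30275 window, also of a long non-coding RNA, was covered over 126 and 153 bases in wild type and over 300 in both mutants, and held none of the motifs searched.

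Motifs were searched in all 12 start windows that the table gives for the locus. GATA motifs were in 7 of 12, with the shared DNA of Dad1 and Abhd4 counted for both, against 29.8% of all 32851 windows. RUNX (TGTGGT) was in 2 of 12 (16.8% of all windows), E-box (CANNTG) in 9 of 12 (72.3%), ETS (CAGGAAG or CCGGAAG) in 2 of 12 (20.9%), the cyclic AMP element (TGACGTCA) in 0 of 12 (1.79%) and the exact heptamer CACAGTG in 1 of 12 (6.81%). No motif contains another, both strands were read, and a match is a description of the letters only. The most GATA motifs were in the window of the olfactory receptor gene Olfr1508, with 3.

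The lists themselves differed in outline. For wild type 1, wild type 2, mutant 1 and mutant 2 in turn (the order used throughout), the shortest peak measured 64, 65, 73 and 87 bp, and neighbouring peaks stood apart by at least 257, 261, 293 and 349 bp. Over whole lists the median peak width was 284, 302, 444 and 421 bp. A peak within 1 kb of an annotated gene end was found in all 4 libraries for 10 of 10 DN3 markers and 5 of 5 markers of later thymocytes, so these peaks do not separate the stages. It was found for 4 of 5 gamma-delta and innate markers (not Klrd1), 2 of 5 erythroid markers (Klf1 and Epor; Gata1, Hba-a1 and Alas2 had none in any library) and 1 of 5 myeloid markers (Itgam). The B-lineage genes Cd79a, Pax5 and Ebf1 also had such a peak in all 4. Csf1r and Mpo, both myeloid, had such a peak in wild type 1 and 2 and in neither mutant, and the part of such cells in the results was not tested. Genes of factors that act on the locus were called at an end in all 4 libraries for 3 of 3 recombinase genes (Rag1, Rag2, Dntt), 10 of 10 enhancer factors and 3 of 5 architecture genes. Of the latter, Rad21 had no call in wild type 2, and Nipbl had a call in wild type 1 only. The share of all annotated genes with a peak within 1 kb of an end was not computed. These marker and factor counts therefore describe the lists and do not set the named genes apart from others.

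The locus was densely open in DN3 cells. It held 180, 166, 142 and 142 peaks per Mb, against 55.2, 50.2, 39.4 and 38.3 over the span of chromosome 14. Its peaks were also stronger than the typical peak of their own list. The fold enrichment over local background is the authors' own value for each peak and serves here only within a list. Its median in the locus was 4.33, 4.32, 3.78 and 3.86, against 3.33, 3.27, 3.20 and 3.39 over the whole lists. A fold of 4 or more was reached by 56.7, 54.7, 43.9 and 47.4% of locus peaks, against 38.6, 36.5, 34.5 and 37.8% of all peaks.

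Fewer but wider peaks were listed in the mutant libraries. The number of peaks was 329 ± 18.4 in wild type and 269.5 ± 0.707 in mutant (mean ± SD, n = 2 each), a difference of 59.5 (ratio 1.22). With the same number of peaks taken from each list it was 5.5 (274.5 against 269), and with peak length and joining gap made equal it was 28. The bases they covered were 136, 133, 167 and 158 kb, or 134 ± 2.33 kb in wild type against 163 ± 6.98 kb in mutant, so that mutant libraries covered 1.21 times the wild-type length. The groups did not overlap in either measure, and each gave p = 0.333 in an exact two-sided permutation test, the smallest p that 2 against 2 libraries can give. Median peak width in the locus was 282, 294, 463 and 409.5 bp, close to that of each whole list. Per list, the locus held 0.202, 0.202, 0.222 and 0.227% of all peaks, and 0.189, 0.188, 0.232 and 0.227% of all covered bases. With peaks of fold 4 or more alone, the covered length had the opposite order, 98.1 kb in wild type and 92.0 kb in mutant. With peak length and joining gap made equal, the covered length was 138.9 kb in wild type and 163.6 kb in mutant. With the same number of peaks from each list it was 125.9 and 162.4 kb. The lists' joining distance moved with genotype, and its part in the wider peaks was not tested on reads.

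**Figure D1:**
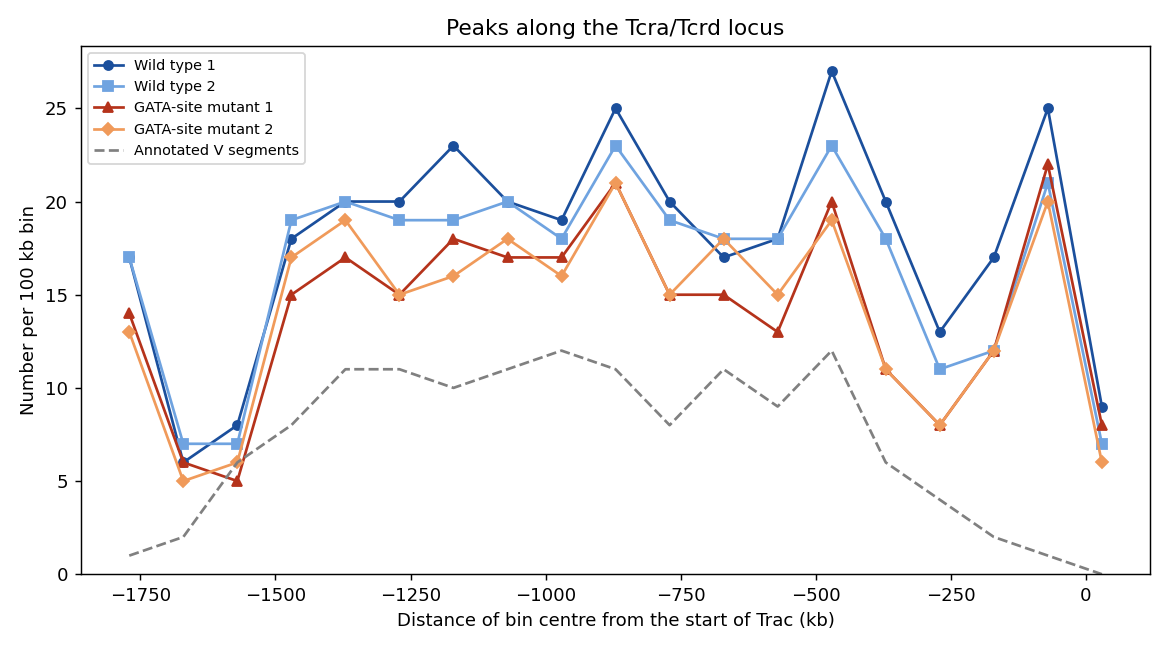
Peaks (vertical axis, number per 100 kb bin) in the 4 libraries against the distance of the bin's centre from the start of Trac (horizontal axis, kb), with the number of annotated V segments as a dashed line. Counts ran from 5 to 27 per bin, low in both bins near the start of the V array and high again in the bin that holds delta and alpha J segments, where V segments are few.

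Along the window, the number of peaks per 100 kb ran from 5 to 27. The sparsest stretch was near the start of the V array, around Trav2 and Trav4-1, where a pair of neighbouring bins held 5 to 8 peaks each in every library. The fullest bins were in the V array, with 19 to 27 peaks at 12 V segments and 21 to 25 peaks at 11, and in the bin that runs from the delta segments into the alpha J array, with 20 to 25 peaks at 1 V segment. The longest stretch with no peak in any library was 40.9 kb around the pseudogene Trav4-1. The next was 36.0 kb over 30 Traj segments and the beginning of Trac.

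**Figure D2:**
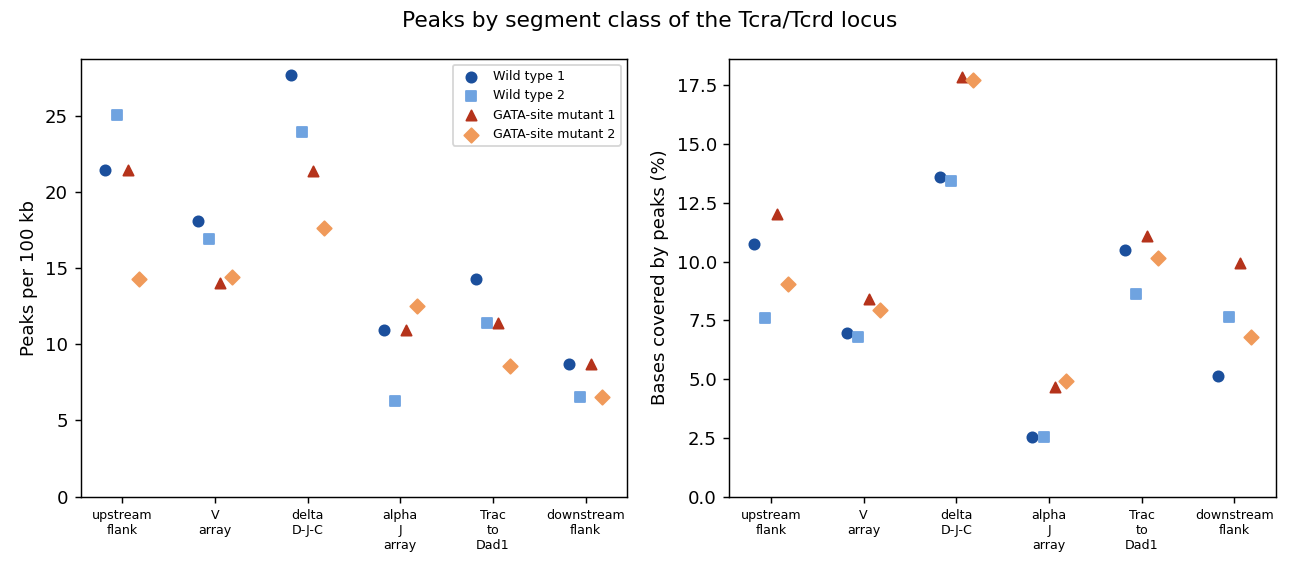
Peaks per 100 kb (left) and percent of bases covered by peaks (right) in each of 6 segment classes, with 1 point per library. The delta D-J-C segments had the largest covered share, 13.4 to 17.9%, and the alpha J array the smallest, 2.53 to 4.90%.

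Divided by segment class, the V array of 1648 kb held 298, 279, 231 and 238 peaks, or 85.9 to 88.3% of the locus. Peaks covered 6.96, 6.79, 8.40 and 7.96% of its bases, with both mutant libraries above both wild-type libraries. The delta D-J-C segments, 79.5 kb, held 22, 19, 17 and 14 peaks and were the most covered class, at 13.6, 13.4, 17.9 and 17.7%. In contrast, the alpha J array, 63.8 kb, held 7, 4, 7 and 8 peaks, with 2.54, 2.53, 4.68 and 4.90% covered. In every library the covered share of the alpha J array was the lowest of the 6 classes and that of the delta segments the highest. The interval from Trac to Dad1 (35.1 kb) held 5, 4, 4 and 3 peaks, the flank before Trav1 (28.0 kb) 6, 7, 6 and 4, and the flank beyond Dad1 (46.1 kb) 4, 3, 4 and 3. The number of peaks per class in mutant was lower in both libraries than in both wild-type libraries for the V array and the delta segments, and overlapped wild type in the other 4 classes.

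Nearly every V segment, the unit that supplies the variable domain of a receptor chain, had a peak close by. Of 136 annotated V segments, 127, 127, 123 and 123 had a peak within 1 kb, and 120 (88.2%) had a peak there in all 4 libraries, against 18.9% of 16779 annotated genes up to 2 kb long elsewhere. The bases of the V array that lay within 1 kb of a peak were 35.1, 33.8, 32.5 and 32.5%. A peak in all 4 was found for 109 of 119 V genes (91.6%) and 11 of 17 V pseudogenes (64.7%). All 10 segments shared between alpha and delta (named with both Trav and dv) were called in all 4 libraries, as were 5 of 6 Trdv segments. In 97 of the 120 a merged region called in all 4 libraries lay over the low-coordinate end. In 18 it lay before that end, in 3 inside or over the high-coordinate end and in 2 after the latter. A merged region spans the peaks of all lists, so the peaks of a single library can be narrower. A peak over some part of the segment itself was found in each of the 4 libraries for 85 of the 136. Apart from Trdv5, which is inverted, the low-coordinate end is the side of the V promoter. The strongest peak was centred at a median of 8.25, 0.5, 12.5 and -7.75 bp from the low-coordinate end. Its centre lay before that end in 58, 60, 58 and 61 of the 120, so these peaks were not limited to the promoter side.

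The 6 V segments with no peak within 1 kb in any library were Trav4-1, Trav3d-2, Trav7n-5, Trav3n-2, Trav3-2 and Trav22, of which 4 are pseudogenes. All 3 copies of Trav3-2 are among them. Trav5d-4 was near a peak in both wild-type libraries alone, with fold 2.90 and 2.61. Trdv4, a delta V segment, was near a peak in both mutant libraries alone, with fold 2.24 and 2.30, and its closest wild-type peak stood 6835 bp away in wild type 1. Another 8 segments (Trav8d-1, Trav7d-5, Trav6n-5, Trav6-5, Trav7-5, Trav7-6, Trav20 and Trav23) were called in some libraries. Of these, Trav7d-5 and Trav7-6 were near a peak in wild type 1 alone, and Trav6-5 and Trav7-5 in wild type 2 alone.

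Within each list the strength of V peaks varied between subgroups. Over the 120 segments called throughout, the strongest nearby peak had a median fold of 6.56, 6.24, 5.01 and 5.12. The Trav5 subgroup stood highest in each of the 4 lists, with a median fold of 13.8, 13.4, 7.36 and 8.31 over the 8 of its 9 members that were called throughout. These peaks were narrow, with median widths of 256 and 213.5 bp in wild type and of 337.5 bp in mutant 2, and wider than each of these in mutant 1. Some were shared with a neighbour: the regions at Trav12d-3 and Trav12n-3 are also the closest to Trav5d-3 and Trav5n-3. Of the Trav5 members, the pseudogenes Trav5d-2, Trav5n-2, Trav5-2, Trav5d-3 and Trav5n-3 had no peak over the segment itself in any library. Trav13 peaks, found at 13 of 13 members, were broad, with median widths of 984, 994, 1125 and 1069 bp and a median fold of 5.10, 5.15, 4.87 and 4.89. Trav15 peaks (9 of 9) were wider still, at 1110, 1132, 1642 and 1458 bp. Among subgroups of more than 1 member, Trav14 (9 of 9) had the lowest median fold in every list, at 4.25, 3.60, 2.77 and 2.98. Low values were also found at the lone segments Trav17, with fold 2.09, 2.64, 2.09 and 1.82, and Trav21, with 2.39, 2.89, 1.97 and 1.72.

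Ranked by the lowest of its 4 folds, the leading V region lay at chr14:52929356-52929864, over the low-coordinate end of Trav12d-3. Its fold was 15.2, 13.7, 8.89 and 9.61, which placed it at percentiles 99.9, 99.8, 98.8 and 99.1 of its lists. The region before the pseudogene Trav5d-2, chr14:52913892-52914224, had 17.5, 14.2, 7.19 and 10.6, which was the highest fold of the window in wild type 1 and in mutant 2. In wild type 2 the highest was 14.3 at Trav5n-2, and in mutant 1 it was 8.98 at Trav9-4. Other segments in the first 20 were Trav12-1 (9.83, 9.57, 8.24 and 8.90), Trav9-2 (8.86, 8.17, 7.70 and 7.40) and Trav2 (7.82, 7.08, 6.66 and 6.54). The lowest fold of these 20 segments ran from 6.51 to 8.89. Trav9-4 had 6.87 and 7.55 in the wild-type lists and 8.98 and 9.09 in the mutant lists. These folds belong to separate lists and were not tested between genotypes.

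Peaks within the V array were not limited to V segments. Of its 293 regions, 173 lay within 1 kb of a V segment and 120 further away. Regions near V segments that were called in all 4 libraries (130 of 173) were 814 bp wide at the median, with a fold of 6.23, 5.65, 4.76 and 4.77. Those further away (84 of 120) were 379 bp wide at the median, with a fold of 4.56, 4.49, 3.46 and 3.58. Within each list the regions near V segments thus had the higher median. The strongest region away from V segments was chr14:53991196-53992077, inside the long non-coding RNA Gm30392, between Trav23 and Trdv3. Its fold was 9.39, 7.42, 7.46 and 7.76, at percentiles 96.2, 92.2, 95.6 and 95.6.

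**Figure D3:**
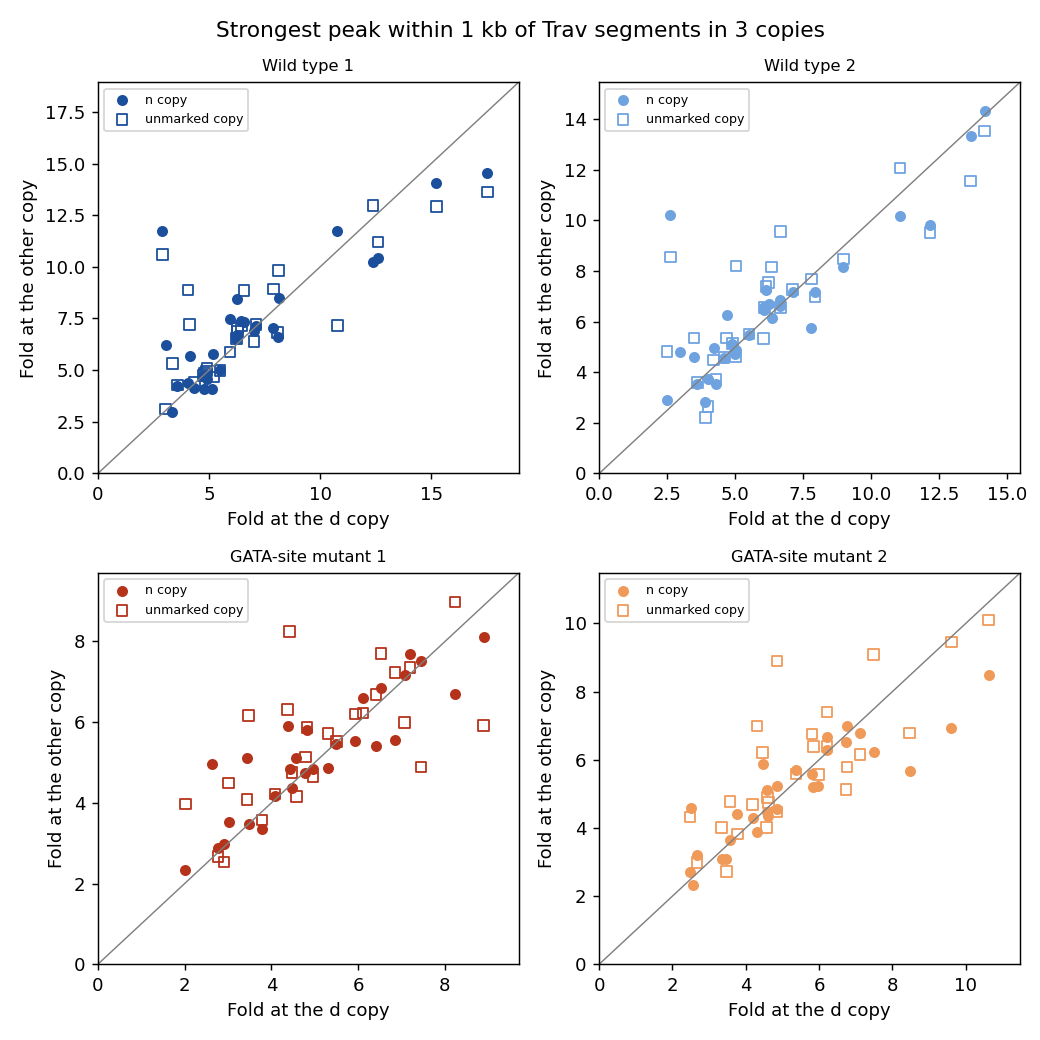
Fold enrichment of the strongest peak within 1 kb of the d copy (horizontal axis) and of the n copy (filled circles) and unmarked copy (open squares) of the same Trav segment (vertical axis), with 1 panel per library and a line of equality. Most points lie near the line, and the Trav5-4 set stands apart in both wild-type panels at a fold of 2.90 and 2.61 for the d copy.

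The central Trav array of this strain is present in repeated blocks, whose copies carry d or n in the symbol or no mark. In 32 sets with all 3 copies annotated, 27 had every copy called in all 4 libraries, 2 had 2 copies, 1 had 1 copy and 2 had none. The d and n copies stood 311 kb apart at the median (290 to 321 kb). Within a library, the highest fold of a set was 1.21, 1.21, 1.19 and 1.23 times the lowest at the median. The left edges of the peaks, measured from the segment start, fell within 100 bp of each other in 20 of 29, 22 of 29, 20 of 27 and 18 of 27 sets with a peak at every copy. Trav13-3 was among the closest sets, with 7.12, 7.15 and 7.22 for its d, n and unmarked copies in wild type 1 and 6.12, 6.59 and 6.22 in mutant 1. Other regions of the blocks were compared by their offset. Of 51 regions of the d block called throughout, 46 (90.2%) had a counterpart in the n block, and this held for 14 of the 17 that lay over 1 kb from a V segment. From n to the unmarked block it held for 38 of 50 (76%), and for 7 of 16 away from V segments. The copies are close in sequence, and how reads that match several copies were assigned is not given in the sources used here, so signal of the copies cannot be told apart where their sequence is shared.

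Some sets were less equal than others, and the examples given here were picked out after their values were seen. The n copy of Trav5-4 had a fold of 11.7, 10.2, 6.35 and 6.05, and the unmarked copy had 10.6, 8.56, 5.65 and 6.56. The d copy had only weak peaks in wild type (2.90 and 2.61) and none in mutant. The unmarked copy of Trav12-1, at 9.83, 9.57, 8.24 and 8.90, exceeded the d copy (8.14, 6.65, 4.42 and 4.85) and the n copy (8.48, 6.86, 4.83 and 5.22) in each of the 4 libraries. In wild type 1, however, the highest fold of that set was 1.21 times its lowest, as at the median of the sets. This ratio was 2.19, 1.68, 1.78 and 1.79 in the Trav12-2 set and 1.80, 1.93, 1.97 and 1.74 in the Trav14-1 set.

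**Figure D4:**
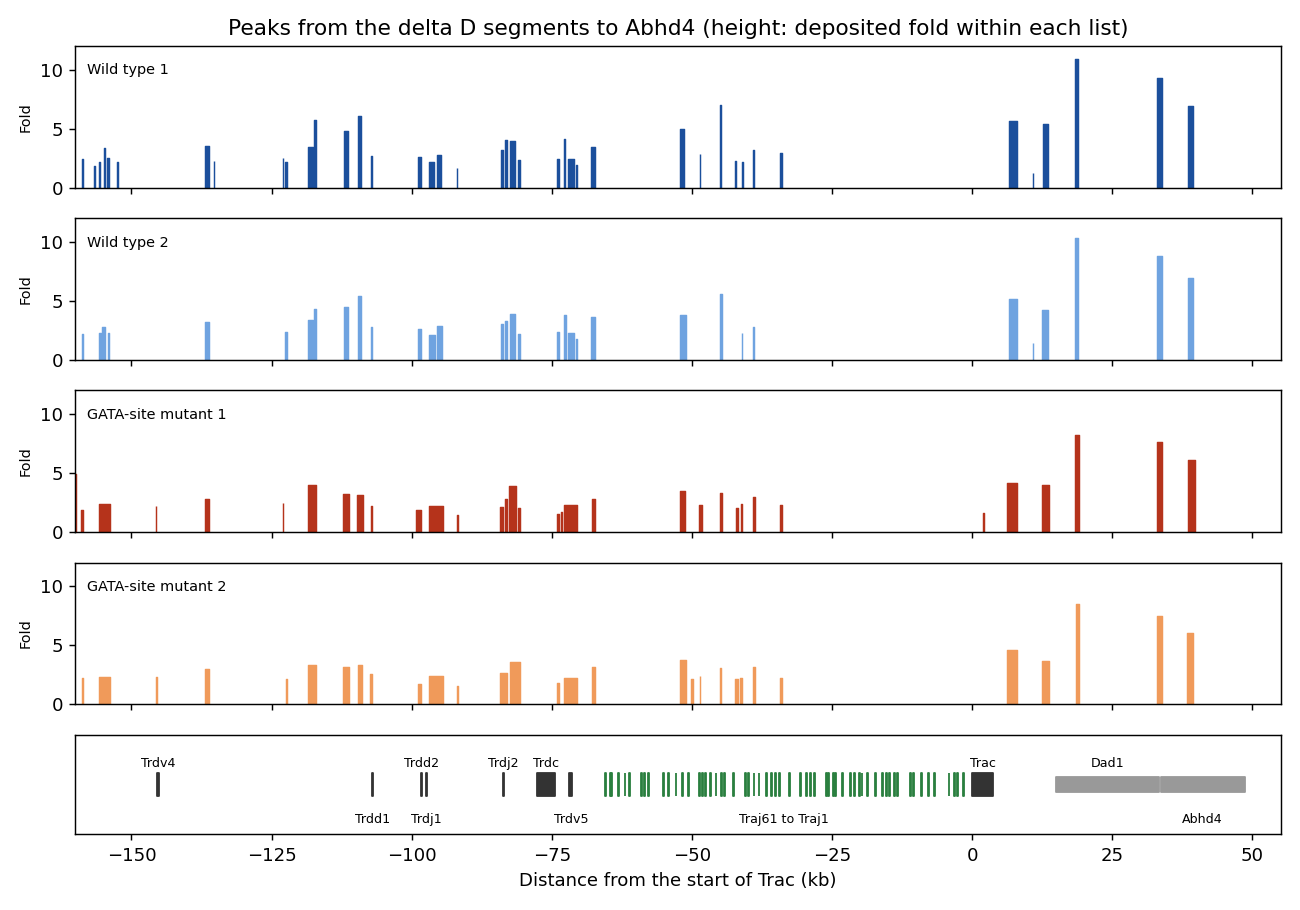
Peaks from the delta D segments to Abhd4, 1 panel per library, drawn at their true width against the distance from the start of Trac (horizontal axis, kb) and as high as the authors' fold (vertical axis), above a map of the annotated segments and genes. Peaks are frequent over the delta segments. They are few in the Traj array, where the first region begins 13.3 kb after the array's start. None is drawn over the later Traj segments before Trac.

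The delta segments carried peaks from the D segments to Trdv5. Regions before Trdd1, within the long non-coding RNA Gm30275, had the highest fold of these segments in 3 of the 4 lists. In mutant 2 the highest, 3.63, lay between Trdj2 and Trdc. The region chr14:54110817-54111775 had a fold of 6.10, 5.44, 3.15 and 3.31, and chr14:54101925-54103477 had 5.74, 4.32, 3.96 and 3.34. Trdd1 and Trdd2, the delta D segments, had a peak within 1 kb in all 4 libraries, with fold 2.67, 2.81, 2.26 and 2.60 at Trdd1 and 2.61, 2.65, 1.87 and 1.76 at Trdd2. The J segment Trdj2 was called throughout as well (4.07, 3.26, 2.85 and 2.67). The other J segment, Trdj1, had no peak over it in any library, and the nearest stood 325, 329, 325 and 329 bp away. The strongest peaks within 1 kb of Trdj1 were those already given for Trdd2 in wild type (2.61 and 2.65). In mutant they were the peaks over the Gm30275 window (2.19 and 2.37). Trdc itself carried no peak, and the nearest, 377, 328, 413 and 406 bp after its end, had 2.39, 2.34, 1.54 and 1.81. In each list both regions before Trdd1 exceeded the D and J segments.

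Of the 6 Trdv segments, Trdv2-2 had a fold of 8.02, 7.62, 5.89 and 6.27, and its peak ran on into the Gm30392 window printed here. Trdv3, a pseudogene, had 8.14, 7.18, 6.19 and 6.45, Trdv2-1 had 7.15, 6.42, 3.97 and 4.60, and Trdv1 had 4.62, 4.90, 4.11 and 3.29. Trdv2-2 and Trdv3 led the Trdv segments in each list. Trdv5, which lies beyond Trdc in the opposite orientation, showed how peak outlines differed: the wild-type lists held 3 separate peaks there and each mutant list 1 peak. The strongest was 261 and 326 bp wide with fold 4.15 and 3.84 in wild type, against 2379 and 2388 bp with 2.30 and 2.26 in mutant. The lists also differed in joining distance, and these folds were not compared.

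**Figure D5:**
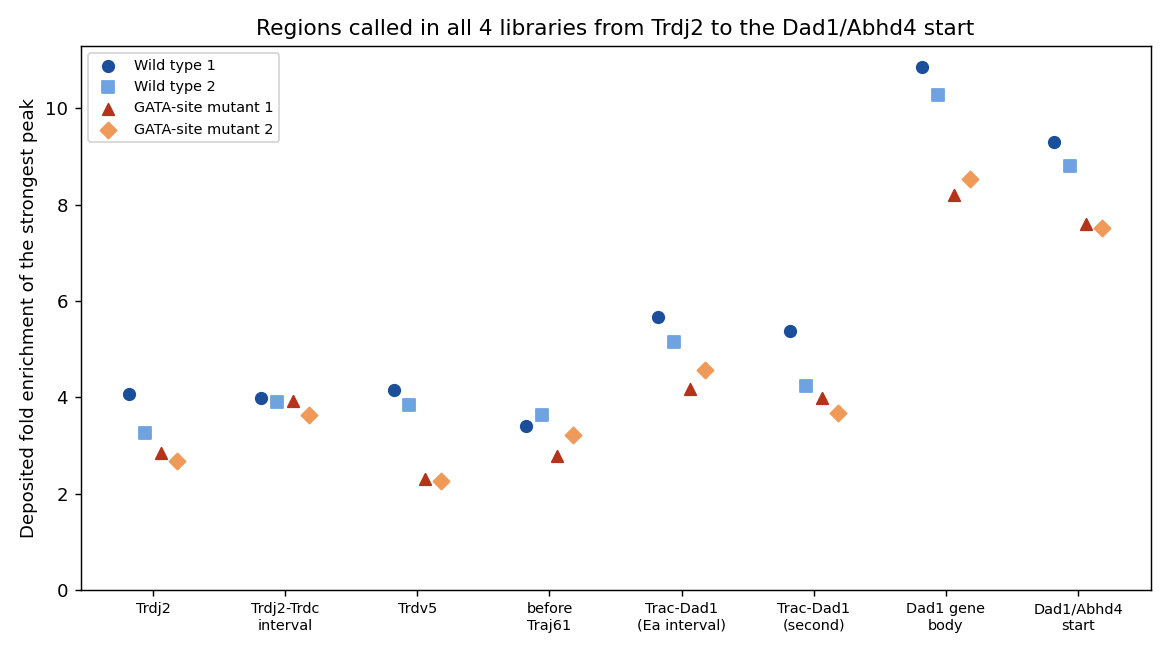
The authors' fold of the strongest peak (vertical axis) at 8 regions from Trdj2 to the Dad1/Abhd4 start (horizontal axis, in genomic order), with 1 point per library. In each library the Dad1 gene body stands highest, and the Ea interval stands above the interval between Trdj2 and Trdc.

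The regions at the known control elements were called in all 4 libraries. With peaks of fold 4 or more alone, the regions named below for the delta enhancer and TEA intervals had a call in 0 libraries. The Ea interval had a call in 4. The neighbouring regions at Trdj2 and at Trdv5 had a call in 1 library each. Between Trdj2 and Trdc, where the delta enhancer lies, chr14:54137930-54139829 began 1093 bp after Trdj2 and ended 3022 bp before Trdc. Its fold was 3.99, 3.91, 3.92 and 3.63, at percentiles 61.2, 62.1, 64.2 and 55.1 of its lists. In the TEA interval, chr14:54152562-54153197 ended 1808 bp before Traj61, with a fold of 3.41, 3.63, 2.79 and 3.21 at percentiles 51.5, 57.4, 39.6 and 45.7. This region was below the one named for the delta enhancer interval in each of the 4 lists.

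The strongest region between Trac and Dad1, taken as the Ea interval, was chr14:54226676-54228542, 2478 bp after the end of Trac and 1867 bp wide. Its fold was 5.67, 5.14, 4.17 and 4.58, at percentiles 79.5, 77.4, 68.2 and 71.3, with −log10 q of 172, 103, 125 and 123. In each list it exceeded both the delta enhancer interval and the TEA interval. Its left edge stood at the same base, 54227100, in both wild-type lists and at 54226676 and 54226736 in the mutant lists. Its right edge stood at 54228542, 54228446, 54228540 and 54228534. A neighbour at chr14:54232948-54234227 had 5.38, 4.24, 3.98 and 3.67. Trac itself had a peak in mutant 1 alone, 120 bp wide with fold 1.63.

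The alpha J array was open in part. Of 60 annotated Traj segments, 16, 10, 16 and 16 had a peak within 1 kb, 10 of them in all 4 libraries. The first of the 8 regions began 13.3 kb after the start of Traj61 and the last ended 32.3 kb before the end of the array, and they ran from Traj50 to Traj32. The strongest in both wild-type lists, chr14:54175455-54175888 at Traj43 to Traj41, had a fold of 7.04, 5.61, 3.31 and 3.11. In both mutant lists the strongest was chr14:54168342-54169396 at Traj50 to Traj48, with 3.49 and 3.76. That region had 3.83 in wild type 2 and stood at percentile 73.5 of the wild type 1 list. Of the 8 regions 4 were called in all libraries, 3 were absent from wild type 2 alone and 1 was in mutant 2 alone. The 30 segments from Traj31 to Traj1 lay in the 36.0 kb with no peak in any library, and with the depth unknown a missing peak does not show that they were closed.

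The locus largely kept its regions between genotypes. Of 332 regions, 239 (72.0%) were called in all 4 libraries, against 56.7% of all merged regions. The remainder comprised 26 that each wild-type list held and neither mutant list did, 6 in the mirror case and 61 others. The 26 made 9.45% of the 275 regions held by each wild-type list, against 15% over all lists. The 6 of 251 called in both mutant libraries made 2.39%, against 1.75%. The overlap of peaks in bases (Jaccard index) was 0.830 between the wild-type libraries, 0.814 between the mutant libraries and 0.666 to 0.710 across genotypes. With the same number of peaks from each list the order turned, to 9 regions in wild type alone and 17 in mutant alone, and with 50% cover the counts were 25 and 23. Leaving out wild type 2, so that wild type 1 alone defined the group, raised the wild-type count to 47. Mutant counts were 13 without mutant 1, 11 without mutant 2 and 12 without wild type 1.

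The 26 wild-type regions had narrow, weak peaks. Widths ran from 78 to 370 bp (median 126), and the lower of both folds from 1.27 to 4.07 (median 2.34). Of the 26, 25 lay in the V array, 12 within 1 kb of a V segment, and 11 within 1 kb of a mutant peak. Of the 275 regions held by each wild-type list, 248 lay in the V array, 147 of them within 1 kb of a V segment. At a lower wild-type fold under 2, 9 of 14 regions lacked a mutant call (64.3%), against 41.2% of all regions. From 2 to 3, it was 16 of 57 (28.1%), against 33.1% of all regions of that strength. From 3 to 4 the count was 0 of 40 (6.64% of all regions), from 4 to 6 it was 1 of 81 (0.551%), and above 6 it was 0 of 83 (0.0562%). Of the locus regions at 3 or more in both wild-type libraries, all but 1 thus had a call in a mutant library.

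That exception was chr14:53467152-53467275, 124 bp wide, with fold 4.38 and 4.07, near the pseudogene Gm18711. Others were chr14:53102148-53102332 at Trav9n-1 (3.36 and 2.74), chr14:53770829-53770931 (3.07 and 2.72), chr14:53831604-53831927 at Trav18 (2.81 and 2.71), chr14:53001526-53001603 near Trav5d-4 (2.64 and 2.61) and chr14:53882194-53882373 at Trdv1 (2.54 and 2.60). Trav18 and Trdv1 also had a stronger peak at their low-coordinate end in all 4 libraries, with fold 11.4, 9.77, 5.94 and 5.50 at Trav18. The other 4 of the first 10 had lower folds of 2.43 to 2.52, among them chr14:53443754-53443923 at Trav7-3 (3.15 and 2.46). The regions at Trav9n-1, Trav18, Trdv1 and Trav7-3 lay over the high-coordinate end of the segment, which is the side of its recombination signal, a feature picked out after the values were seen. Regions called only in mutant were 158 to 235 bp wide, and all 6 lay in the V array, as did 221 of the 251 called in both mutant libraries. The 4 with both folds at 2 or more were chr14:52968137-52968348 (2.73 and 3.38), chr14:54074829-54074986 just before Trdv4 (2.24 and 2.30), chr14:53470698-53470928 near Trav8-1 (2.15 and 3.06) and chr14:54053810-54054039 (2.14 and 2.12).

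Genes at both ends of the window were also called. Dad1 had 2 regions. The first, inside the gene at chr14:54238904-54239529, had a fold of 10.9, 10.3, 8.20 and 8.53, at percentiles 98.4, 98.6, 97.6 and 97.6. The second, at the start shared with Abhd4 (chr14:54253477-54254406), had 9.31, 8.81, 7.61 and 7.53 and holds the printed Dad1 window. Abhd4 had a further region with 6.87, 6.97, 6.07 and 6.04. At the other end, the olfactory receptor genes Olfr1507 (7.60, 7.27, 6.58 and 6.72), Olfr1508 (5.73, 5.31, 2.85 and 3.59), Olfr1509 (7.38, 7.82, 5.34 and 5.72) and Olfr1510 (6.53, 6.41, 5.44 and 6.02) were called in all 4 libraries, as was Gm36448 (3.36, 3.45, 3.04 and 3.94). These receptor genes serve smell in sensory neurons, and Olfr1507, Olfr1508 and Olfr1509 lie within the V array, between Trav1 and Trav2. Olfr49, beyond Abhd4, had no peak in any library.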

How the data were processed

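ATAC-seq was measured in 4 DN3 libraries, 2 per genotype, each with its own deposited broad peak list. Per the submitters' processing notes, the build was mm10 (GRCm38) and the tools were MACS2 2.1.1, SAMtools 1.7, Bowtie2 2.3.3.1 and cutadapt 1.16. Not given in the sources used here are their settings, the filters on reads, and whether reads were shifted for the transposase. Each deposited peak carries a score, its −log10 q times 10 without decimals, a fold (a ratio to local background), a −log10 p and a −log10 q, all from the authors' caller. Read counts are not part of the lists, so depth is unknown and no interval could be given.

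Peaks off chromosomes 1 to 19, X and Y (0.112 to 0.131% of each list) were dropped. The 4 lists were merged into regions, and 1 bp of overlap made a call. Segments came from a RefSeq gene table (GRCm38.p6), which gives no strand, exons or UTRs. A peak belonged to the segment class of its midpoint. Percentiles rank fold within a list. Group means of peak number and covered length were compared with an exact two-sided permutation test over libraries. Named were the control elements, the 10 regions of highest lowest fold, up to 10 regions per genotype with both folds of 2 or more, up to 20 V segments and the flanking genes. The full B-lineage marker list is not reported here. Members and lists were chosen with earlier results of these data known. The permutation test did not pair libraries by replicate number. The correlation of replicate differences in log2 fold between genotypes was -0.0675 over 102231 regions and -0.0138 over 239 in the locus. Such a correlation cannot show whether libraries of the same number were handled together. The calling of regions was tested on simulated lists. Python 3.11.15, numpy 2.4.6, pandas 2.3.3, scipy 1.17.1 and matplotlib 3.10.9 were used.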

Additional observations from a re-analysis of the deposited data

How the results depend on the processing

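Alternatives were a fold of 4 or more, a q limit (−log10 q of at least 5), equal numbers of peaks (119023 per list), a common minimum length (87 bp) and joining gap (below 349 bp), 50% cover, and leaving out each library. With the replicate block, the difference in peaks stayed 59.5 and that in covered length -28.1 kb, each with exact p = 0.5, the smallest that 2 pairs can give. Leaving out a library gave differences of 46.5 to 72.5 peaks and -33.0 to -23.1 kb. The difference in peaks was 5.5 with equal numbers, 28 with common length and gap, 38 at the q limit and 60.5 at a fold of 4 or more. At a fold of 4 or more, the covered length reversed to 6.12 kb more in wild type, named element regions called in all libraries fell from 8 to 3 (the Ea interval and 2 at Dad1), mean peaks in the V array from 261.5 to 143.25, regions called in all 4 libraries from 239 to 111, and regions called only in mutant from 6 to 0. The latter numbered 1 at the q limit, 23 with 50% cover, 17 with equal numbers and 6 to 13 with a library left out. Regions called only in wild type went from 26 to 15 at the q limit, 14 with common length and gap, 9 with equal numbers, where they were fewer than those only in mutant, and 31 to 47 with a library left out (47 without wild type 2). Fewer peaks or libraries are built into the fold, q, equal-number and left-out settings, and the cause of the other changes was not tested. The other counts that answer a comparison stayed within 1.5 times their main value, and the other differences kept their direction but not their size. V segments with a peak nearby in all libraries ran from 82 to 129. Depth is unknown, so a missing call does not show that signal was absent.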

Other observations

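The narrow wild-type region between Ea and Dad1, chr14:54231288-54231415, combined the lowest folds of the regions called only in wild type, 1.27 and 1.43, with −log10 q of 150 and 13.6. These folds stood at percentiles 0.0402 and 0.134 of their lists. Of the mutant-only regions, 4 of 6 lay within 1 kb of a wild-type peak, as did 11 of 26 in the other direction.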
